A study of Homo sapiens with 12 samples.

Results

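The genes described here set how a nucleoside drug such as cytarabine enters a cell, is activated and is undone. They are SLC29A1, SLC29A2, DCK, CMPK1, CDA, SAMHD1, NT5C2 and DCTD, taken by name from the table of gene counts, and they make up 8 of its 57353 gene names. MOLM-13 is an established human acute myeloid leukemia cell line that carries an activating internal duplication in the FLT3 receptor kinase, listed as wild type for genotype in the sample records. The cells were kept for 15 hr with vehicle (DMSO) or with 3 nM quizartinib (AC220), an inhibitor of FLT3. This was done in RPMI, the regular medium, or in hBMSC-CM, which was RPMI mixed with medium conditioned by HS-5, a human bone marrow stromal cell line. The 4 groups were vehicle in RPMI, quizartinib in RPMI, vehicle in hBMSC-CM and quizartinib in hBMSC-CM, with 3 replicates in each and 12 libraries in all. All libraries came from this single cell line, and no cytarabine was given to any of them. The study calls its replicates biological and does not describe how the cultures were kept apart, so the p-values measure the spread between these samples of a single line.

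Nucleoside drugs cross membranes poorly by diffusion and rely on transporters that normally carry nucleosides for salvage. Inside the cell a kinase adds the first phosphate, the step that usually limits activation, and further kinases make the triphosphate that is built into DNA. Deaminases, a nucleotidase and a triphosphate hydrolase work in the opposite direction. In acute myeloid leukemia cytarabine is a backbone of treatment, and the balance of these proteins is among the best known influences on the response to it. Transcript levels are one input to that balance, and protein, activity and drug uptake were not measured in these libraries.

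Counts per library totalled 19966546 to 31546104, and levels are given as CPM, counts scaled to a common library total with TMM factors. A count of 0 allows for up to 3 counts, which are 0.0951 to 0.150 CPM per library at this depth, for counting error only. Of the 8 genes, 7 passed the filter for testing and CDA did not. Of 16 myeloid markers 13 passed the filter, while CD34 had no more than 3 counts in any library. Of 14 stromal markers 7 were at 0 in all 12 libraries and 3 passed the filter. Their summed level was 5.13 to 19.6 CPM over the libraries, and it was highest with quizartinib in RPMI, where no stromal medium was present.

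With quizartinib, the transporters fell, the first activating kinase fell slightly, and the hydrolase SAMHD1 rose. In RPMI SLC29A1 fell by 4.26 on the log2 scale (SE 0.08, n = 3 per group) and SLC29A2 by 2.12 (SE 0.07), whereas DCK fell by 0.37 (SE 0.05) and SAMHD1 rose by 0.92 (SE 0.04). In hBMSC-CM both transporters fell less, by 1.44 and 0.70, and SAMHD1 rose more, by 1.25. In each medium edgeR called 6 of the 7 tested genes at an adjusted p under 0.05, of which 2 were higher (SAMHD1 and NT5C2) and 4 lower (SLC29A1, SLC29A2, DCK and DCTD). Of all 12998 genes tested, 79.3% were called in RPMI (40.1% higher and 39.2% lower) and 67.1% in hBMSC-CM (33.4% higher and 33.7% lower). With so many genes called, the count of members is near the background, and the sizes of change are given for each. The quizartinib and vehicle libraries did not overlap for 6 of the 7 members in each medium, against 81.1% of all genes in RPMI and 68.4% in hBMSC-CM. A change of at least 2-fold was called for 2 of the 7 members in each medium. These were SLC29A1 and SLC29A2 in RPMI and SLC29A1 and SAMHD1 in hBMSC-CM, against 21.4% and 6.89% of all genes tested. In bulk RNA, fewer cells of a type and less RNA per cell cannot be told apart. CPM is a share of each library, so a change in total RNA per cell is not seen in it. In a separate experiment of the study, RNA yields were reported as lower with quizartinib. Changes per cell may therefore differ from those given here.

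**Figure D1:**
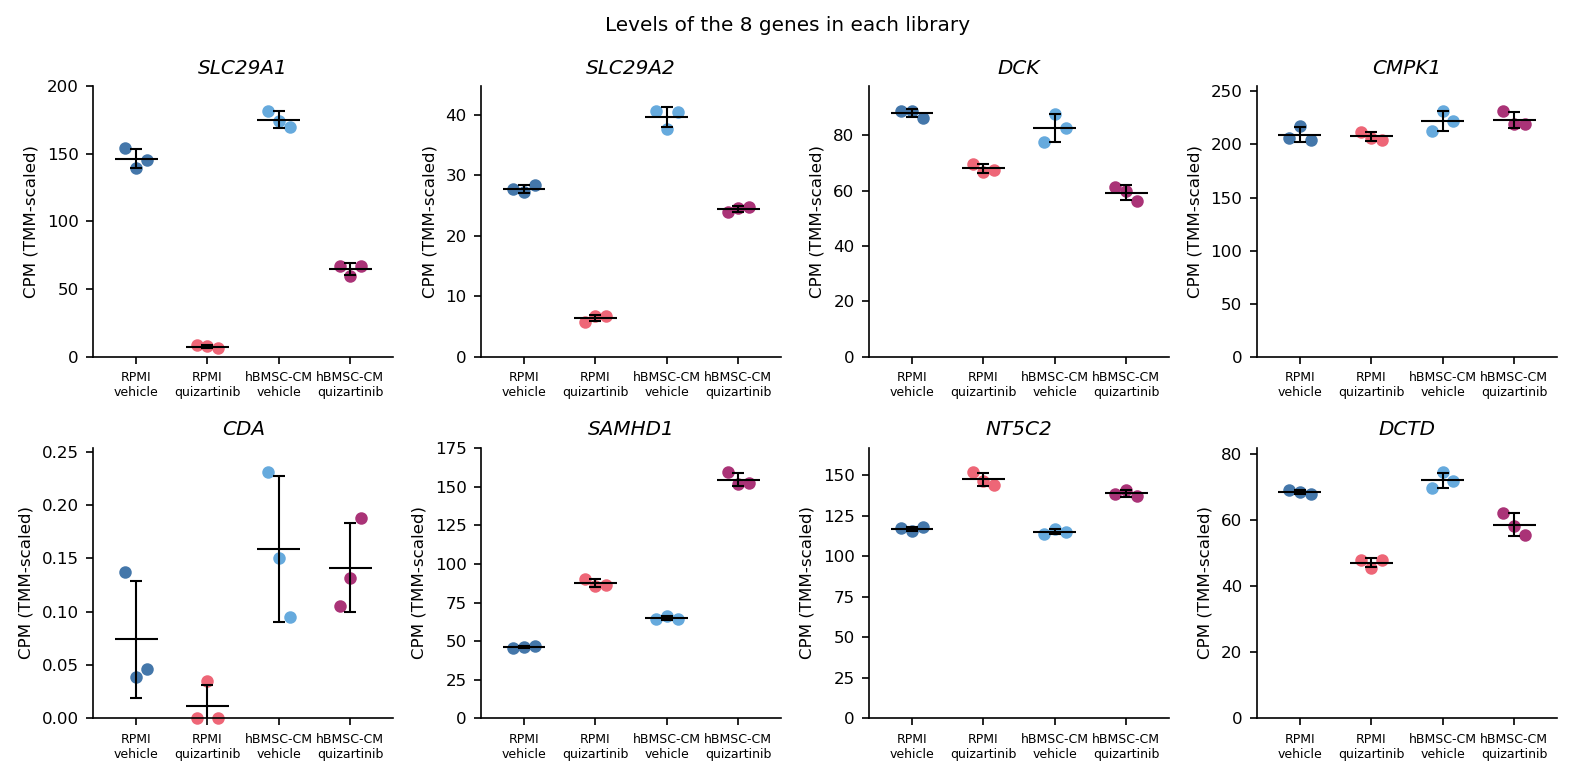
Level of each of the 8 genes in CPM (TMM-scaled, linear axis from 0) in the 4 groups; points are libraries, horizontal lines the means of 3 replicates and bars the SD. SLC29A1 and SLC29A2 were lowest with quizartinib in RPMI, SAMHD1 was highest with quizartinib in hBMSC-CM, and CDA stayed below 0.25 CPM in every library.

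Sequence upstream of the RefSeq transcription start is shown for SLC29A1, the gene with the largest change, for DCK, which shares a motif with it, and for SAMHD1, which moved the other way. RefSeq promoter sequence (GRCh38.p14) was matched for 7 of the 8 genes, all except SLC29A2, and the 250 bases before the start were searched on both strands. The start given for NT5C2 lies 123784 bases inside the gene as annotated here, so its window, before an internal start, was left out. The starts given for DCK and DCTD also lie inside the annotated genes, by 1111 and 325 bases. Their windows were kept, but they are not sequence before the annotated 5' end. Those for SAMHD1, SLC29A1 and CDA lie 185, 62 and 11 bases inside, so their windows are only in part before that end. Capitals mark the E-box CACGTG, which MYC and related factors can bind, in the first 2 sequences and CCAAT, the NF-Y box, in the third. The stretches are chr6:44219365-44219552 on the plus strand, chr4:70993399-70993562 on the plus strand and chr20:36951735-36951764 on the minus strand. The first 2 end before any exon annotated in this window, and the third lies inside the first exon of some annotated SAMHD1 transcripts.
SLC29A1: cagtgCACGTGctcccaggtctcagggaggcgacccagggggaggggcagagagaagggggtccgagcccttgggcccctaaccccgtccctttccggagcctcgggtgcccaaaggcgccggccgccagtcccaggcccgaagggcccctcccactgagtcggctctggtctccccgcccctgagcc
DCK: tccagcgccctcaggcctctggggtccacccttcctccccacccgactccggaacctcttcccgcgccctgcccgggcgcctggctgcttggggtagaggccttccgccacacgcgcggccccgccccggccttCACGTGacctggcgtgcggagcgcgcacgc
SAMHD1: caggaggCCAATaggctgCCAATactcctt

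The E-box starts 245 bases before the start of SLC29A1 and 116 before that of DCK, and 6.49% of the 27305 promoters searched hold one in a window of this length. SLC29A1 and DCK thus share it, and the windows of CMPK1, CDA, SAMHD1 and DCTD had no match. CCAAT was found 2 times in SAMHD1, at 49 and 38 bases before the start, and in 33.0% of all promoters. The GC box GGGCGG had 2 matches in SLC29A1, 3 in DCK and 2 in DCTD, with 42.3% of all promoters holding one. None of these 6 windows matched the STAT motif TTCNNNGAA (6.78% of all promoters) or an E2F motif (TTTCCCGC, TTTGGCGC, TTTCGCGC or TTTGCCGC, 2.79%). The motifs did not overlap one another in these genes. A match is a description of letters and was not tested for binding.

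SLC29A1 encodes ENT1, the equilibrative transporter that carries most cytarabine into leukemia cells (GRCh38, chromosome 6, bases 44219553 to 44234142, plus strand, protein coding). In RPMI its level was 154, 139.8 and 145.4 CPM with vehicle and 8.38, 8.03 and 6.20 CPM with quizartinib. In hBMSC-CM it was 181.9, 173.9 and 169.7 CPM with vehicle and 67.5, 59.6 and 67.2 CPM with quizartinib. All 4 groups were separate, in the order quizartinib in RPMI, quizartinib in hBMSC-CM, vehicle in RPMI, vehicle in hBMSC-CM. The means were 146.4 ± 7.15 and 7.54 ± 1.17 CPM in RPMI and 175.2 ± 6.20 and 64.7 ± 4.47 CPM in hBMSC-CM (SD, n = 3). Quizartinib lowered SLC29A1 19.2-fold in RPMI (log2 fold change -4.26, 95% interval -4.42 to -4.10, adjusted p = 9.07e-21, edgeR), the 10th largest decrease of the 12998 genes. In hBMSC-CM the decrease was 2.71-fold (-1.44, interval -1.56 to -1.31, adjusted p = 2.86e-14, edgeR), the 86th largest.

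The drug response of SLC29A1 differed between the media. The log2 change in hBMSC-CM was 33.7% of that in RPMI, and the interaction of drug and medium, the difference of the 2 responses, was 2.83 (SE 0.10, adjusted p = 9.05e-15, edgeR), the 13th largest positive one of all genes. Under quizartinib, SLC29A1 was 8.49-fold higher in hBMSC-CM than in RPMI (log2 fold change 3.09, adjusted p = 8.22e-18, edgeR). Without drug it was also higher in hBMSC-CM (log2 fold change 0.26, SE 0.06, adjusted p = 0.0014, edgeR). Treated cells in hBMSC-CM remained 2.26-fold below untreated cells in RPMI (-1.18, SE 0.06, adjusted p = 4.29e-13, edgeR).

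SLC29A2 encodes ENT2, a second equilibrative carrier with lower affinity for many nucleosides (chromosome 11, bases 66362521 to 66372214, minus strand). It read 27.8, 27.2 and 28.5 CPM with vehicle and 5.82, 6.67 and 6.79 CPM with quizartinib in RPMI. In hBMSC-CM it read 40.7, 37.8 and 40.4 CPM with vehicle and 24.0, 24.5 and 24.8 CPM with quizartinib. The 4 groups were again separate and came in the same order as for SLC29A1. The decrease with quizartinib was 4.33-fold in RPMI (log2 fold change -2.12, SE 0.07, adjusted p = 1.04e-16, edgeR) and 1.62-fold in hBMSC-CM (-0.70, SE 0.06, adjusted p = 1.12e-09, edgeR). The change in hBMSC-CM was 33.1% of that in RPMI, next to 33.7% for SLC29A1, and the interaction was 1.42 (SE 0.09, adjusted p = 8.19e-11, edgeR).

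Medium raised SLC29A2 with and without the drug, 3.81-fold with quizartinib (log2 fold change 1.93, adjusted p = 1.96e-15, edgeR) and 1.43-fold with vehicle (0.51, SE 0.06, adjusted p = 7.04e-07, edgeR). Treated cells in hBMSC-CM came close to untreated cells in RPMI, at 24.5 ± 0.43 against 27.8 ± 0.65 CPM (SD, n = 3). That difference was called (-0.19, SE 0.06, adjusted p = 0.00958, edgeR), but not with scaling by library size alone (-0.10, adjusted p = 0.151) or with upper-quartile scaling (-0.13, adjusted p = 0.0609). In the reference annotation 10.3% of the exonic length of SLC29A2 overlaps B4GAT1-DT on the opposite strand. Use of strand in the counting is not stated in the sources used here, so counts from the shared bases are uncertain.

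The ratio of the transporters moved too. There were 5.10 to 5.54 reads of SLC29A1 per read of SLC29A2 with vehicle in RPMI and 0.914 to 1.44 with quizartinib. In hBMSC-CM there were 4.20 to 4.61 with vehicle and 2.43 to 2.81 with quizartinib. The groups did not overlap in this ratio, and with quizartinib reads of SLC29A1 stayed well above those of SLC29A2 in hBMSC-CM but not in RPMI.

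Many markers of cell division also fell with the drug, and most fell less in hBMSC-CM. Of 16 genes of S phase and proliferation all 16 were called lower with quizartinib in both media. Of all genes, 39.2% were called lower in RPMI and 33.7% in hBMSC-CM. The median log2 fold change of the 16 was -2.34 for RPMI and -0.93 for hBMSC-CM. In RPMI their summed level was 5700 to 5850 CPM with vehicle and 2459 to 2573 CPM with quizartinib, and in hBMSC-CM it was 5381 to 5595 and 3193 to 3259 CPM. Between treated cells, hBMSC-CM had 12 of the 16 called higher than RPMI and 2 lower, against 35.5% and 34.3% of all genes. The interaction was called positive for 13 and negative for 1, against 26.1% and 19.2%. MCM2, a replication licensing factor, went from 194 to 32.4 CPM in RPMI and from 209.7 to 109.8 in hBMSC-CM. MKI67, a marker of cycling cells, did not share this pattern, at 795.4 and 665.4 CPM in RPMI and 709.7 and 500 CPM in hBMSC-CM. Nor did TOP2A, at 1041 and 895 CPM in RPMI and 857.9 and 656.1 CPM in hBMSC-CM. CDK1 fell to a similar degree in both media, from 123.7 to 67.2 CPM in RPMI and from 118.7 to 62.9 in hBMSC-CM. The part of these genes in the changes of the transporters was not tested.

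**Figure D2:**
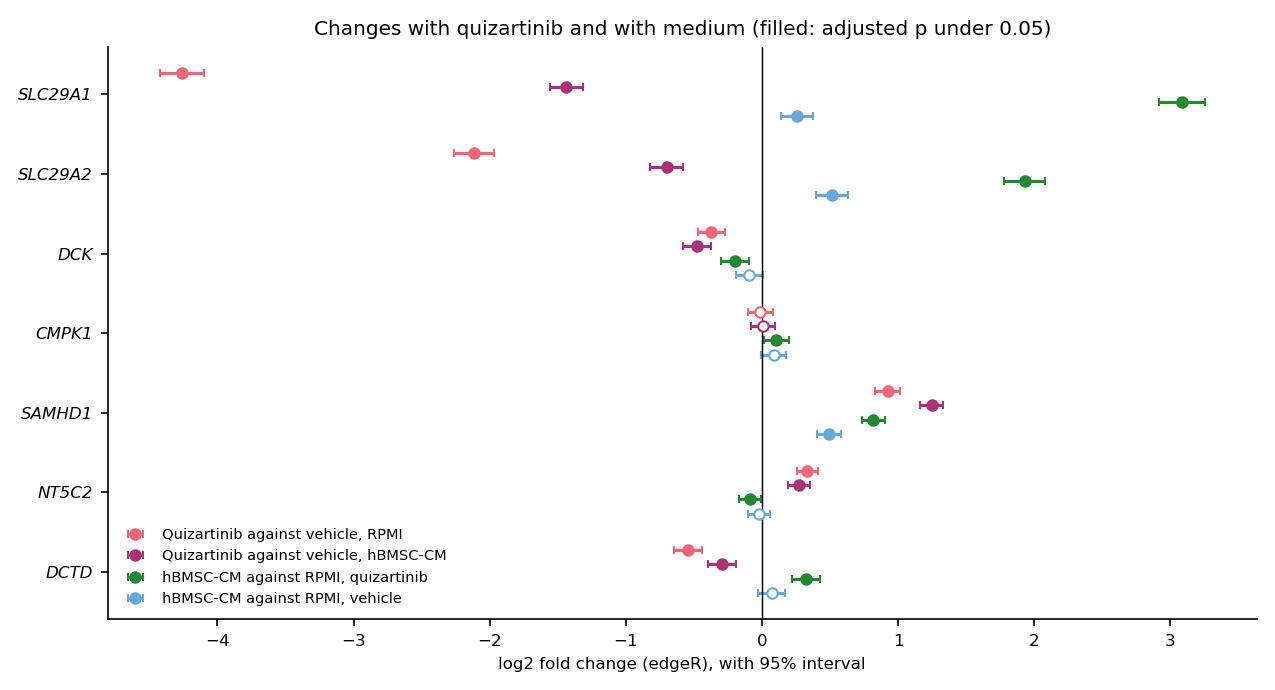
Log2 fold change of the 7 tested genes (edgeR, x axis) with 95% intervals, for quizartinib against vehicle in each medium and for hBMSC-CM against RPMI with each treatment; filled points have an adjusted p under 0.05. SLC29A1 and SLC29A2 lie far to the left with quizartinib in RPMI and far to the right for hBMSC-CM against RPMI under quizartinib, while CMPK1 lies within 0.2 of 0 throughout.

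DCK encodes deoxycytidine kinase, which adds the first phosphate to cytarabine (chromosome 4, bases 70992538 to 71030914, plus strand). In RPMI it read 88.8, 88.9 and 86.3 CPM with vehicle and 69.8, 66.9 and 67.5 CPM with quizartinib. In hBMSC-CM it read 77.6, 87.7 and 82.8 CPM with vehicle and 61.4, 60.0 and 56.1 CPM with quizartinib. Both treated groups lay below both untreated groups, and the untreated groups overlapped. DCK fell 1.29-fold with quizartinib in RPMI (log2 fold change -0.37, SE 0.05, adjusted p = 4.59e-07, edgeR) and 1.39-fold in hBMSC-CM (-0.48, SE 0.05, adjusted p = 3.22e-08, edgeR). The difference between these responses was not called (interaction -0.11, 95% interval -0.25 to 0.04, adjusted p = 0.221, edgeR).

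Unlike the transporters, DCK was not higher in hBMSC-CM. Under quizartinib it was 1.15-fold lower there than in RPMI (-0.20, SE 0.05, adjusted p = 0.00127, edgeR), a call that was lost when genes of low counts were kept in the test (-0.12, adjusted p = 0.0794). With vehicle the difference was -0.09 (95% interval -0.19 to 0.01, adjusted p = 0.146, edgeR). From vehicle in RPMI to quizartinib in hBMSC-CM DCK fell by 0.57 on the log2 scale (SE 0.05, adjusted p = 2.22e-09, edgeR). Exons of DCK share 6.41% of their length with MOB1B on the same strand.

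CMPK1 encodes the UMP/CMP kinase, which adds the second phosphate (chromosome 1, bases 47333790 to 47394866, plus strand). It ranged from 204.3 to 217.2 CPM with vehicle and from 204.4 to 211.9 CPM with quizartinib in RPMI. In hBMSC-CM it ranged from 212.9 to 231.7 CPM with vehicle and from 218.8 to 231.8 CPM with quizartinib. The drug groups overlapped the vehicle groups in both media. The log2 fold change with quizartinib was -0.01 in RPMI (95% interval -0.10 to 0.08, adjusted p = 0.805, edgeR) and 0.01 in hBMSC-CM (interval -0.08 to 0.10, adjusted p = 0.882, edgeR), and both signs turned under other settings. Calls appeared without a filter on low counts in RPMI (-0.11, adjusted p = 0.0445) and with library size only in hBMSC-CM (0.11, adjusted p = 0.0231). Under quizartinib CMPK1 was called 1.08-fold higher in hBMSC-CM (0.11, SE 0.04, adjusted p = 0.0354, edgeR), and 5 of the 12 fits that leave out a library lost this call.

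CDA encodes cytidine deaminase, which turns cytarabine into inactive uracil arabinoside (chromosome 1, bases 20589086 to 20618903, plus strand). Its raw counts were 4, 1 and 1 with vehicle and 0, 1 and 0 with quizartinib in RPMI. In hBMSC-CM they were 7, 3 and 2 with vehicle and 3, 3 and 4 with quizartinib. The group levels over 3 libraries were 0.0761 CPM with vehicle in RPMI (exact Poisson 95% interval 0.0279 to 0.166) and 0.0138 with quizartinib (0.000348 to 0.0766). They were 0.161 with vehicle in hBMSC-CM (0.0834 to 0.282) and 0.142 with quizartinib (0.068 to 0.261), and the intervals cover counting error only. Most libraries were at or near the limit that a count of 0 allows, so CDA was barely detected in any group. Without the filter on low counts, edgeR over 30572 genes gave CDA an adjusted p of 0.03 for hBMSC-CM against RPMI under quizartinib, a difference of 10 counts against 1, and adjusted p-values of 0.168 to 0.882 for the other 5 comparisons.

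SAMHD1 encodes a triphosphate hydrolase that also cleaves the active triphosphate of cytarabine (chromosome 20, bases 36890229 to 36951893, minus strand). In RPMI it read 45.6, 46.5 and 46.9 CPM with vehicle and 90.4, 86.0 and 86.7 CPM with quizartinib. In hBMSC-CM it read 64.4, 66.6 and 64.4 CPM with vehicle and 159.5, 151.9 and 152.3 CPM with quizartinib. Again no groups overlapped, and here drug and medium each raised the level, so that quizartinib in hBMSC-CM stood highest. SAMHD1 rose 1.90-fold with quizartinib in RPMI (log2 fold change 0.92, SE 0.04, adjusted p = 2.1e-14, edgeR) and 2.37-fold in hBMSC-CM (1.25, SE 0.04, adjusted p = 8.76e-16, edgeR). The interaction was positive (0.33, SE 0.06, adjusted p = 0.000126, edgeR), so the response was larger in the conditioned medium, the reverse of the transporters.

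The medium raised SAMHD1 1.76-fold with quizartinib (0.82, adjusted p = 1.53e-13, edgeR) and 1.41-fold with vehicle (0.49, adjusted p = 2.81e-08, edgeR). From vehicle in RPMI to quizartinib in hBMSC-CM it rose 3.34-fold (1.74, SE 0.04, adjusted p = 5.02e-18, edgeR), the 151st largest increase of all genes. Of its exonic length 9.86% overlaps TLDC2 on the opposite strand. The 16 myeloid markers summed to 1379 to 1411 CPM with vehicle in RPMI, 2144 to 2166 with quizartinib in RPMI, 1679 to 1709 with vehicle in hBMSC-CM and 2582 to 2737 with quizartinib in hBMSC-CM. This total came in the order of SAMHD1, but of the 13 markers that passed the filter only AZU1 had that order in its group means. FLT3, for example, was at 209.3, 453.7, 113.3 and 156.9 CPM in the same groups. The part of the markers in the rise of SAMHD1 was not tested.

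NT5C2 encodes a cytosolic nucleotidase that removes phosphate from nucleoside monophosphates (chromosome 10, bases 103087185 to 103277605, minus strand). It read 117.5, 115.8 and 118.1 CPM with vehicle and 152, 146.3 and 144.1 CPM with quizartinib in RPMI. In hBMSC-CM it read 114.1, 116.7 and 115 CPM with vehicle and 138.3, 141.1 and 137.2 CPM with quizartinib. Both treated groups lay above both untreated ones. The increase was 1.26-fold in RPMI (log2 fold change 0.33, SE 0.04, adjusted p = 7.34e-08, edgeR) and 1.21-fold in hBMSC-CM (0.27, SE 0.04, adjusted p = 3.2e-06, edgeR), and the responses were not called different (interaction -0.06, 95% interval -0.18 to 0.05, adjusted p = 0.359, edgeR).

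Between media NT5C2 was called 1.06-fold lower in hBMSC-CM under quizartinib (-0.09, SE 0.04, adjusted p = 0.047, edgeR). This call was lost in 7 of the 12 fits that leave out a library. With vehicle the difference was -0.02 (95% interval -0.10 to 0.06, adjusted p = 0.684, edgeR). The values of NT5C2 are uncertain, since 29.8% of its exonic length overlaps CNNM2 and 4.95% overlaps INA, both on the opposite strand.

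DCTD encodes deoxycytidylate deaminase, which can divert cytarabine monophosphate (chromosome 4, bases 182890060 to 182917936, minus strand). In RPMI it read 69.2, 68.5 and 68.0 CPM with vehicle and 48.0, 45.5 and 47.9 CPM with quizartinib. In hBMSC-CM it read 69.8, 74.6 and 71.8 CPM with vehicle and 62.3, 58.2 and 55.6 CPM with quizartinib. The treated groups lay below the untreated ones, with hBMSC-CM above RPMI in each. DCTD fell 1.46-fold in RPMI (log2 fold change -0.54, SE 0.05, adjusted p = 1.82e-09, edgeR) and 1.23-fold in hBMSC-CM (-0.29, SE 0.05, adjusted p = 2.12e-05, edgeR). The interaction was 0.25 (SE 0.07, adjusted p = 0.00557, edgeR), in the direction of the transporters and far below the 2.83 of SLC29A1.

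Under quizartinib DCTD was 1.25-fold higher in hBMSC-CM than in RPMI (0.32, SE 0.05, adjusted p = 8.14e-06, edgeR). With vehicle the difference was 0.07 (95% interval -0.03 to 0.17, adjusted p = 0.282, edgeR), although the groups did not overlap. From vehicle in RPMI to quizartinib in hBMSC-CM DCTD fell by 0.22 on the log2 scale (SE 0.05, adjusted p = 0.000469, edgeR).

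Between the media, members were thus called in both directions only under quizartinib. With quizartinib, hBMSC-CM against RPMI called 5 members higher (SLC29A1, SLC29A2, SAMHD1, DCTD and CMPK1) and 2 lower (DCK and NT5C2), where 69.8% of all genes were called (35.5% higher and 34.3% lower). The calls of CMPK1, DCK and NT5C2 were small and were lost under some other settings. With vehicle, 3 members were higher (SLC29A1, SLC29A2 and SAMHD1) and 0 lower by edgeR, also at an unadjusted p under 0.05 and by DESeq2 and limma, where 32.1% of all genes were called (16.6% higher and 15.5% lower). The interaction was called positive for 4 members (SLC29A1, SLC29A2, SAMHD1 and DCTD) and negative for 0 by edgeR, also at an unadjusted p under 0.05 and by DESeq2 and limma, where 45.2% of all genes were called (26.1% positive and 19.2% negative). For treated cells in hBMSC-CM against untreated cells in RPMI, 2 members were higher (SAMHD1 and NT5C2) and 4 lower (SLC29A1, SLC29A2, DCK and DCTD), where 62.1% of all genes were called (30.6% higher and 31.6% lower). A 2-fold or larger value was called for 2 of the 7 members in 3 of these comparisons, namely hBMSC-CM against RPMI with quizartinib (SLC29A1 and SLC29A2, 9.87% of all genes), the interaction (the same pair, 5.92%) and treated cells in hBMSC-CM against untreated cells in RPMI (SLC29A1 and SAMHD1, 6.28%). Groups did not overlap for 7 of the 7 members between media with quizartinib, for 4 with vehicle and for 7 between treated cells in hBMSC-CM and untreated cells in RPMI, against 71.5%, 44.6% and 66.3% of all genes. These comparisons share libraries with one another, so their counts are not independent. Whatever their sign, the log2 fold changes with quizartinib in RPMI had a median size of 0.54 over the 7 members and 0.48 over all genes, and in hBMSC-CM of 0.48 and 0.30.

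Levels of different genes can be compared only per length, here as CPM per kb of exonic length. These lengths include bases shared with other genes, such as the 29.8% of NT5C2 shared with CNNM2, where counts are uncertain. CMPK1 had the highest and CDA the lowest such level in all 4 groups, at 46.8 to 50.3 and 0.0141 to 0.194 CPM per kb. With vehicle in RPMI SLC29A1 came second at 34.1 ± 1.66, followed by DCK at 28.4 ± 0.48, DCTD at 20.5 ± 0.18, NT5C2 at 12.8 ± 0.13, SLC29A2 at 10.2 ± 0.24 and SAMHD1 at 4.27 ± 0.06 (SD, n = 3), with no neighbours overlapping. With quizartinib in RPMI SLC29A1 dropped to place 7 at 1.75 ± 0.27 CPM per kb, just under SLC29A2 at 2.36 ± 0.19. The transporters then lay below SAMHD1, at 8.09 ± 0.22 CPM per kb.

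With vehicle in hBMSC-CM the order was CMPK1, SLC29A1, DCK, DCTD, SLC29A2, NT5C2, SAMHD1 and CDA, again with no overlap of neighbours. With quizartinib in hBMSC-CM NT5C2, SLC29A1 and SAMHD1 lay together at 15.2 ± 0.22, 15.1 ± 1.04 and 14.3 ± 0.39 CPM per kb. SLC29A1 overlapped NT5C2 and SAMHD1, which did not overlap each other. DCK at 19.1 ± 0.88 and DCTD at 17.5 ± 1.02 CPM per kb overlapped as well. With the length of the longest transcript in place of all exons, 14 of the 32 places changed, those of CMPK1 and CDA not among them.

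**Figure D3:**
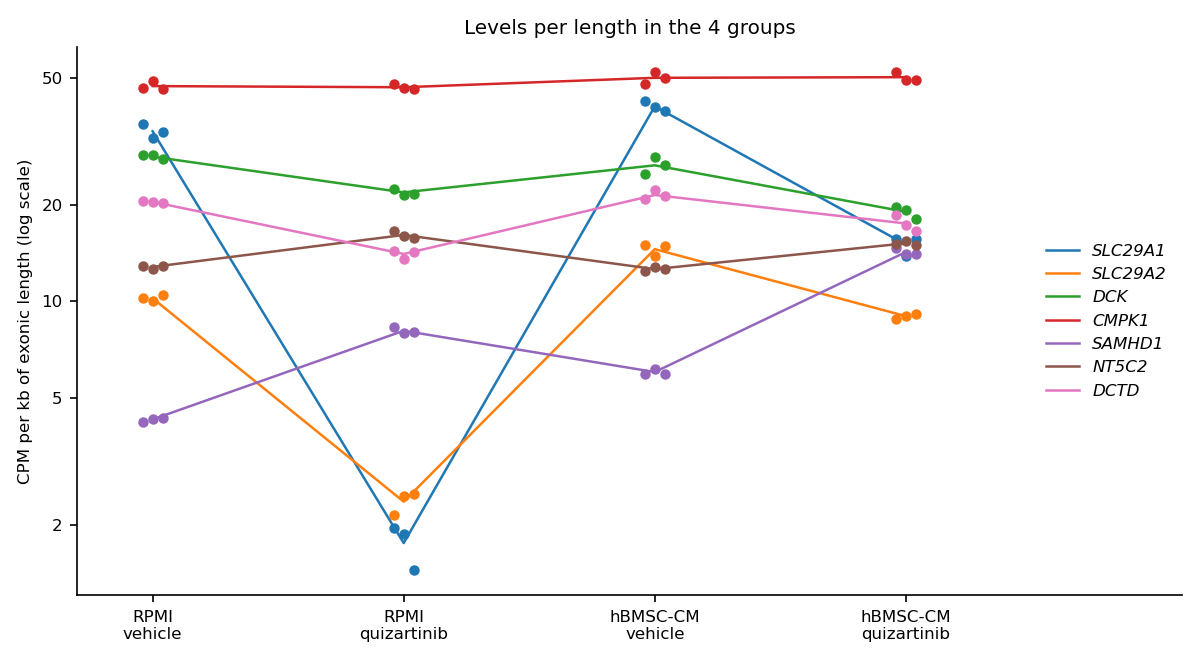
CPM per kb of exonic length (log axis) of the 7 tested genes in the 4 groups; points are libraries and lines join the group means to guide the eye. SLC29A1 went from place 2 with vehicle in RPMI to place 7 with quizartinib in RPMI, and CMPK1 stayed on top.

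The activating kinase was set against enzymes that work in the opposite direction to activation. The measure was reads of DCK per read of the other gene in the same library, a ratio that needs no scaling between libraries. Per read of SAMHD1 there were 1.95, 1.91 and 1.84 reads of DCK with vehicle and 0.772, 0.778 and 0.778 with quizartinib in RPMI. In hBMSC-CM there were 1.21, 1.32 and 1.29 with vehicle and 0.385, 0.395 and 0.369 with quizartinib. The 4 groups did not overlap. The ratio of reads also reflects the longer exonic length of SAMHD1, so a value of 1 marks no balance point. Per kb of exonic length DCK stayed above SAMHD1 in all 4 groups. This order depends on the length used. Per kb of the longest transcript, DCK was at 22.1 and SAMHD1 at 28.1 CPM with quizartinib in hBMSC-CM. The log2 ratio fell by 1.29 in RPMI (pooled SD 0.03) and by 1.73 in hBMSC-CM (pooled SD 0.06).

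Per read of NT5C2 there were 0.731 to 0.768 reads of DCK with vehicle and 0.457 to 0.468 with quizartinib in RPMI, and 0.681 to 0.751 and 0.409 to 0.444 in hBMSC-CM. The log2 ratio fell by 0.70 in RPMI and by 0.75 in hBMSC-CM. The media overlapped with vehicle and did not with quizartinib. The ratio to CDA could not be read, since with 0 to 7 counts of CDA its change in RPMI was 0.34 with a prior count of 2 and 1.22 with a prior count of 0.5.

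**Figure D4:**
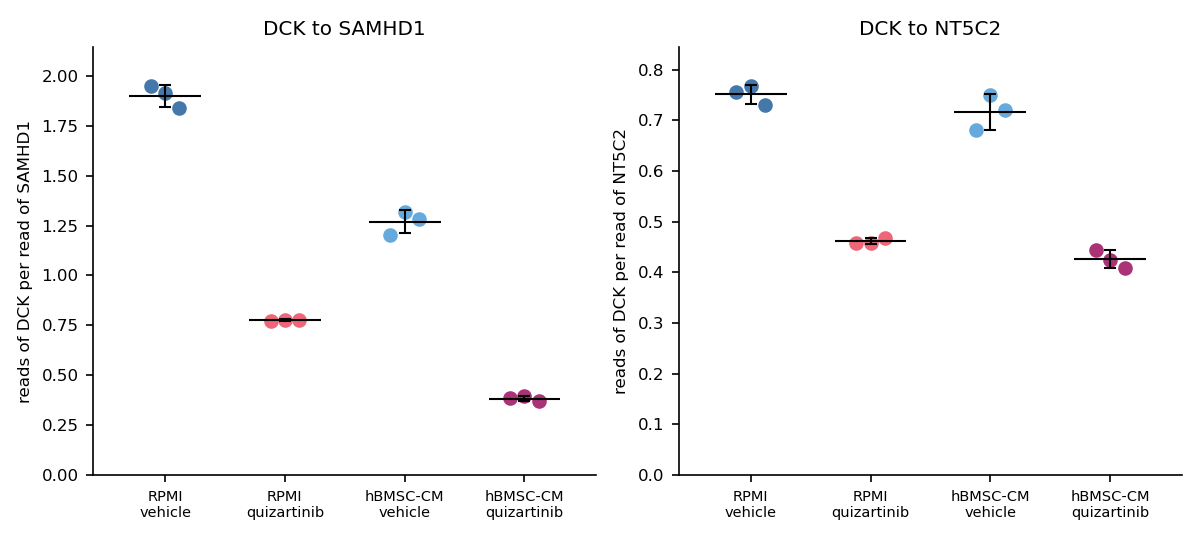
Reads of DCK per read of SAMHD1 (left) and of NT5C2 (right) in the 4 groups, on linear axes from 0; points are libraries, horizontal lines the means of 3 replicates and bars the SD. Both ratios were lower with quizartinib in each medium, and the ratio to SAMHD1 was lowest with quizartinib in hBMSC-CM, at 0.369 to 0.395.

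Beyond the 8 genes, 49 others that move, phosphorylate, dephosphorylate, deaminate or supply nucleosides and nucleotides were listed, and 38 were tested. The 11 that did not pass the filter were SLC28A1, SLC28A2, SLC28A3, ABCC11, ABCG2, CMPK2, NT5C1A, NT5C1B, NT5E, UPP1 and UPP2. With quizartinib 7 of the 38 were called higher and 24 lower in RPMI, and 7 higher and 25 lower in hBMSC-CM. Of all genes tested, 40.1% were called higher and 39.2% lower in RPMI, and 33.4% and 33.7% in hBMSC-CM. The median log2 fold change of the 38 was -0.49 and -0.30, against 0.02 and 0.01 over all genes. Under quizartinib 24 of the 38 were higher and 7 lower in hBMSC-CM than in RPMI, against 35.5% and 34.3% of all genes. With vehicle 10 were higher and 6 lower, against 16.6% and 15.5%. The interaction was called positive for 19 and negative for 3, against 26.1% and 19.2% of all genes. Treated cells in hBMSC-CM against untreated cells in RPMI had 4 higher and 23 lower, against 30.6% and 31.6%. The 3 negative interactions became 5 under several other settings and 6 without quizartinib in RPMI replicate 3, and the 4 higher genes became 11 with library size only and 8 with upper-quartile factors.

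The deoxynucleotide supply fell most. CTPS1, a CTP synthase, was at 151 ± 4.95 CPM with vehicle and 19.6 ± 1.91 with quizartinib in RPMI, and at 156.1 ± 11.6 and 89.1 ± 3.81 CPM in hBMSC-CM (SD, n = 3). RRM2, the small subunit of ribonucleotide reductase, was at 480.4 ± 6.87 and 67.5 ± 1.72 CPM in RPMI and at 456.2 ± 31.2 and 130.6 ± 3.04 CPM in hBMSC-CM. The log2 fold changes of CTPS1 and RRM2 were -2.95 and -2.83 in RPMI, and that of RRM2 was -1.80 in hBMSC-CM (adjusted p = 1.51e-19, 8.99e-21 and 5.36e-17, edgeR). In RPMI 5 of the 7 genes of this group were called lower and 2 higher, against 39.2% and 40.1% of all genes. RRM1, the large subunit of the reductase, and TYMS, thymidylate synthase, were 2.07-fold and 2.01-fold lower in treated cells in hBMSC-CM than in untreated cells in RPMI.

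Kinases and hydrolases of the wider list fell or were not called with quizartinib in RPMI. Of 7 nucleoside kinases 3 were lower by edgeR, of 8 nucleotide kinases 6, of 4 nucleotidases 4 and of 4 nucleotide hydrolases 4, where 39.2% of all genes were lower. The share of nucleoside kinases was thus near that of all genes. NME1, a nucleoside diphosphate kinase that makes triphosphates, changed by -2.85 (log2) in RPMI and -1.12 in hBMSC-CM (adjusted p = 4.19e-19 and 8.64e-13, edgeR). The near-identical copy NME2 makes the split of reads between them uncertain. DCTPP1, a hydrolase of dCTP, fell 2.00-fold in hBMSC-CM (SE 0.07 on the log2 scale, adjusted p = 2.58e-10, edgeR).

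A few genes of the wider list rose. ADA, adenosine deaminase, was at 24.0 ± 1.00 CPM with vehicle and 68.6 ± 2.00 CPM with quizartinib in RPMI, and at 22.7 ± 0.70 and 37.0 ± 1.11 CPM in hBMSC-CM (SD, n = 3). SLC29A3, an equilibrative transporter of lysosomes and mitochondria, rose from 8.83 ± 0.60 to 25.1 ± 1.60 CPM in RPMI and from 8.83 ± 0.53 to 12.4 ± 0.27 CPM in hBMSC-CM, so this transporter moved opposite to SLC29A1 and SLC29A2 in each medium. TYMP, thymidine phosphorylase, rose with the drug and with the medium, from 14.0 ± 0.54 CPM in untreated cells in RPMI to 25.3 ± 1.56 with quizartinib, 43.1 ± 0.84 with hBMSC-CM and 98.9 ± 2.05 with both. Its log2 fold change from the first to the last group was 2.82 (SE 0.06, adjusted p = 3.78e-19, edgeR), the 34th largest increase of all genes.

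**Figure D5:**
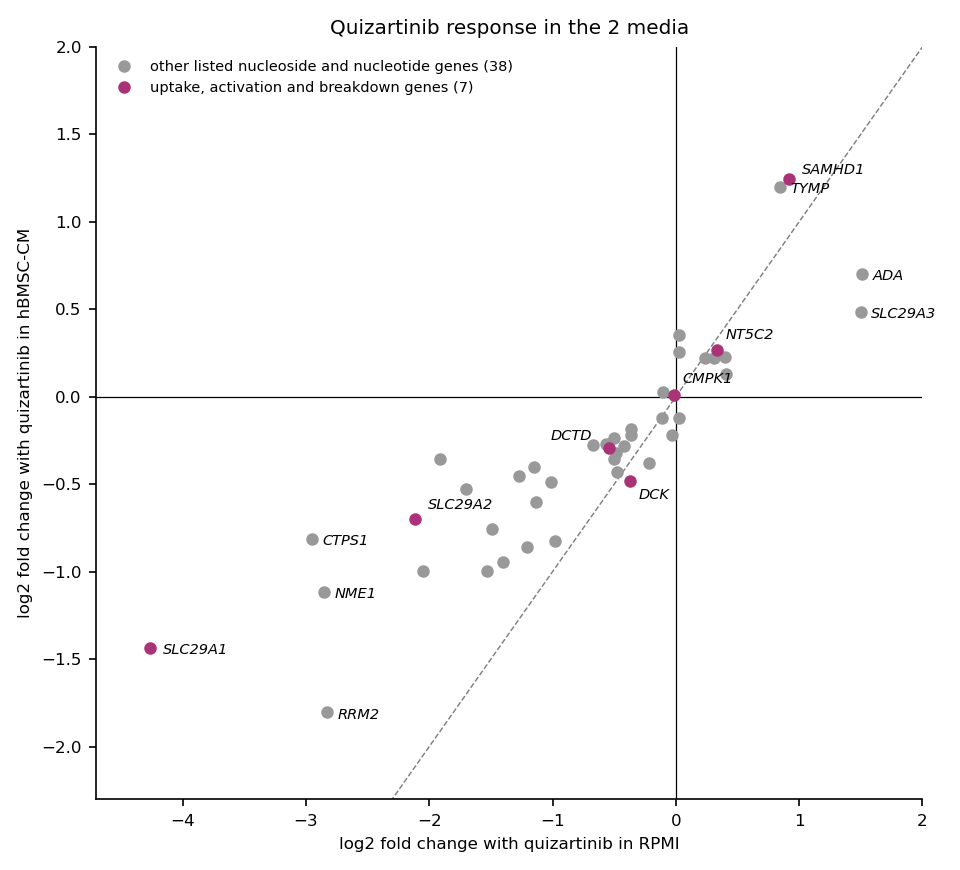
Log2 fold change with quizartinib in RPMI (x axis) and in hBMSC-CM (y axis) for the 7 tested members and the 38 other listed genes; the dashed line marks equal change in both media. SLC29A1, SLC29A2 and CTPS1 lie above the line on the left, having fallen less in hBMSC-CM, and SAMHD1 and TYMP lie above it on the right.

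Smaller differences were called between the media. With vehicle NT5C3B, a nucleotidase, was 1.24-fold higher in hBMSC-CM (adjusted p = 0.00348, edgeR). TK2, the mitochondrial thymidine kinase, was 1.21-fold lower (adjusted p = 0.00718, edgeR). With quizartinib ABCC5, an efflux pump of nucleotide analogs, was 1.23-fold lower in hBMSC-CM (adjusted p = 0.000626, edgeR).

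Genes most like each member were found by Pearson's r of log2 CPM over the 12 libraries, among 9287 genes whose mean level reached 10 CPM. The 12 libraries fall into 4 groups, so r mainly compares group means, and it is given as a description. Nearest to SLC29A1 were GEMIN4, SRSF7 and NOP56 (each r = 0.998), and nearest to SLC29A2 were NCS1, LETM1 and SLC7A2 (0.999, 0.999 and 0.998). Nearest to DCK were CCNB1, DEPDC1B and NUF2 (0.987, 0.986 and 0.986), and nearest to DCTD were PSMC2, PPP2CA and CDC123 (0.993, 0.993 and 0.993). SAMHD1 was nearest to CYP1B1, PIK3R6 and FCGR2A (0.991, 0.989 and 0.986), and NT5C2 to PJA2, STAT2 and IGBP1 (0.995, 0.993 and 0.992). CMPK1, which hardly varied, was nearest to HMGN4, UFM1 and ATP6V1E1 (0.977, 0.897 and 0.893).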

How the data were processed

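The authors trimmed reads of poly-A-selected RNA with BBDuk, aligned them to the human genome (hg38) with STAR 2.6.0a, summed identifiers with the same gene name, and deposited raw counts per gene, which were used here without change. Whether strand was used is not given in the sources used here. A gene was tested if both its raw count and its CPM averaged 1 or more across the 12 libraries (12998 of 30572 with a count). Counts were scaled by TMM and tested with edgeR 4.0.16 (glmQLFit, glmQLFTest) in R 4.3.3, in 1 model of 4 group means with 8 residual degrees of freedom and 6 contrasts. P-values are two-sided, with Benjamini-Hochberg adjustment over all genes tested and a threshold of 0.05. The authors used limma, and limma 3.58.1 and DESeq2 1.42.0 were alternatives, beside other scalings, filters, a replicate block and leaving out each library. On simulated data for quizartinib in RPMI, edgeR called 192 of 200 genes changed 2-fold and 16 of the unchanged ones among 12998. Only these 200 genes were changed in the simulation, where 79.3% of all genes were called in the real comparison. Its rates may therefore not hold for that comparison. CPM is given as mean ± SD of 3 replicates, with intervals at 95%. Coordinates and lengths are from GENCODE (GRCh38) and may differ from the release that the authors used. No pair of replicates agreed within sampling noise (chi-square 2.66 to 10.5 per gene in 12 pairs).

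Named are the 8 members and, of the wider list, up to 3 largest increases and decreases called in each contrast, except that some are not reported here. Members and lists were chosen with earlier results of these data known. Exact permutation of 3 against 3 libraries cannot go below 0.1, so it was not used.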

Additional observations from a re-analysis of the deposited data

Results flagged for a closer look

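The response to quizartinib differed between RPMI and hBMSC-CM, by the interaction term of the edgeR model, for 4 of the 7 tested members and 12 of the other genes named. Values are log2 differences of the response in hBMSC-CM from that in RPMI. Those of the members were 2.83 for SLC29A1, 1.42 for SLC29A2, 0.33 for SAMHD1 and 0.25 for DCTD. For genes that fell with the drug in RPMI a positive value is a smaller decrease in hBMSC-CM, and for SAMHD1 it is a larger rise.

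Among the other genes, CTPS1 (2.14), NME1 (1.74), NME2 (1.56), DCTPP1 (1.05) and RRM2 (1.03) were furthest above 0. TYMS (0.54), RRM1 (0.46), TYMP (0.35) and TK2 (0.33) followed. Negative values were found for SLC29A3 (-1.01), ADA (-0.81) and ABCC4 (-0.16), and the last is a small one that 5 of the 12 fits leaving out a library did not call. No group was large enough to look for a single library far from the others, since each held 3.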

How the results depend on the processing

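Of 959 member fold changes recomputed under all settings, 915 kept their direction and side of the threshold. SLC29A1 kept both in every setting, and SLC29A2, SAMHD1 and DCTD did apart from the exception given for SLC29A2. Members lower in hBMSC-CM under quizartinib numbered 2, but 0 without a filter on low counts and 1 with filterByExpr, with only the 2 groups fitted and with the replicate number as a block. Shared replicate numbers did not pair the libraries (18 same-number pairs, r -0.23 to 0.10, 0 of 12 libraries nearest to their own number), and the block changed this count through NT5C2 alone (adjusted p = 0.064, edgeR) and no other member's call. Leaving out a library gave 1 to 2 for this count, 3 to 6 for the wider list lower in hBMSC-CM with vehicle (3 without vehicle in hBMSC-CM replicate 1) and 2 to 6 for its negative interactions (6 without quizartinib in RPMI replicate 3). Those interactions numbered 5 with DESeq2 size factors, upper-quartile factors or a minimum of 10 CPM. The wider list higher in treated hBMSC-CM against vehicle in RPMI rose from 4 to 11 with library size only and to 8 with upper-quartile factors. Why each count moved was not tested. The DCK to CDA ratio moved to 1.22 with a prior count of 0.5.

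Both near-0 responses of CMPK1 changed sign. In RPMI it was 0.0766 with library size only, 0.0895 with upper-quartile factors, 0.0546 with a minimum of 10 CPM, and -0.0209 to 0.0156 leaving out a library. In hBMSC-CM it was -0.004 with DESeq2 (-0.0044 with its size factors in edgeR), -0.0222 without a filter, -0.0148 with filterByExpr and -0.0223 to 0.0334 leaving out a library. CMPK1 was called at -0.1142 without a filter in RPMI and at 0.1123 with library size only in hBMSC-CM. Its interaction ran from -0.0077 to 0.0411 leaving out a library. That of NT5C2 was 0.0081 without a filter. Library size only and upper-quartile factors raised the median of all genes with quizartinib in RPMI from 0.02 to 0.11 and 0.13. By longest transcript, the places per length with quizartinib in RPMI were 3 for DCK, 2 for NT5C2, 6 for SLC29A1 and 7 for SLC29A2. With vehicle in RPMI they were 4 for DCK and 3 for DCTD. In hBMSC-CM they were 6 for DCK, 2 for DCTD, 3 for NT5C2 and 4 for SAMHD1 with quizartinib, and 4 for DCK, 3 for DCTD, 5 for NT5C2 and 6 for SLC29A2 with vehicle.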
